A study of Saccharomyces cerevisiae with 6 samples.

Results

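The genes described here are the heme biosynthesis genes of budding yeast, Saccharomyces cerevisiae: 8 enzyme genes of the pathway from HEM1 to HEM15 and HAP1, which encodes a heme-responsive transcription factor. They were chosen by gene name, as rows of the value table whose annotated symbol is one of 9 names, with earlier results of the same arrays already known. All 9 were found, each on 1 spot, among 5711 genes measured. No threshold on a value entered the choice, but the differences between the strains were in view when it was made. Every difference, error and call of these genes is therefore a description of them and no independent evidence.

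The arrays compared 3 strains, wt, ssy1KO and ssy1T9, all of the S288C laboratory background by the series' design text, while the array titles give that background for wt alone. SSY1 encodes the amino acid sensor of the plasma membrane, ssy1KO lacks the gene by its name, and ssy1T9 belongs to a study of a natural variant that affects expression. The labels give no growth medium, harvest stage, selection marker or further genotype, and they do not say whether a mutant strain is 1 clone. Every strain was set against each of the others on 2 dual-colour arrays of opposite dye orientation, 6 in all, and whether the 2 came from separate cultures is not stated. Arrays are called KO/wt, T9/wt and T9/KO by their pair. Array 1 carried wt, or ssy1T9 in the pair of mutants, in the red dye Cy5. Values are log2 ratios after each array was set to a median of 0 over genes. Readings of single arrays, and gaps between the arrays of a pair, keep any effect of the dye on a gene. The fitted differences are adjusted for it. The base is assumed, and the direction is the one that makes the SSY1 reading of ssy1KO the lower one on all 4 arrays with that strain. It is thus likely rather than stated, and with the opposite direction all signs below would turn together.

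Heme, the iron-bearing ring of cytochromes, catalases and sterol-making oxygenases, is built from glycine and succinyl-CoA. The first enzyme works in the mitochondrion, the next ones in the cytosol, and the last steps return to the mitochondrion, where iron is inserted. Heme in turn informs the yeast cell about oxygen: it activates Hap1, which drives genes of respiration and the gene of the repressor Rox1, and Rox1 keeps genes for life at low oxygen off. The pathway also feeds siroheme, the cofactor of sulphite reductase, which branches off at uroporphyrinogen III. In the S288C background HAP1 is known to carry a Ty1 element that weakens the encoded factor. The labels name no HAP1 allele for these strains.

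Among the heme genes HEM3 stood apart. Its transcript was 1.75-fold lower in ssy1KO and 2.46-fold lower in ssy1T9 than in wt, and it was 1.41-fold higher in ssy1KO than in ssy1T9. HEM1 and HEM13 were lower by small amounts in both mutants, 1.25-fold and 1.23-fold in ssy1KO and 1.23-fold and 1.20-fold in ssy1T9. The other 5 enzyme genes and HAP1 did not pass the threshold in any comparison. The calls come from limma, fitted to all genes on 6 arrays, at a Benjamini-Hochberg adjusted p under 0.05.

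In ssy1KO 3 of the 9 genes were called lower and 0 higher, where 10.5% of all genes were called lower, 13.8% higher and 24.3% in either direction. In ssy1T9 the counts were again 3 lower and 0 higher, beside 12.1% of all genes lower, 14.1% higher and 26.2% in either direction. Between the mutants 1 of 9 was called higher in ssy1KO and 0 lower, beside 0.14% and 0.158% of all genes and 0.298% in either direction. The choice of the genes used these same comparisons, so nothing is read from these shares. The genes called lower against wt were HEM1, HEM3 and HEM13 in both mutants, and both comparisons are made against the wt strain in 1 fit over the same 6 arrays. Without centring the arrays, the median of all genes lay at 0.16 in ssy1KO and 0.17 in ssy1T9, and HEM3 was then the 1 heme gene called in each.

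The median of the 9 genes was -0.15 in ssy1KO, -0.14 in ssy1T9 and -0.03 between the mutants, beside medians of 0.00 over all genes in each. All 8 enzyme genes lay below 0 in ssy1KO, and all 8 in ssy1T9, where 49.7% and 50.6% of all genes did. Their SEs ran from 0.08 to 0.09. Without centring 4 of the 8, namely HEM1, HEM3, HEM12 and HEM13, lay below 0 in each mutant, where 16.8% and 16.6% of all genes did.

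**Figure D1:**
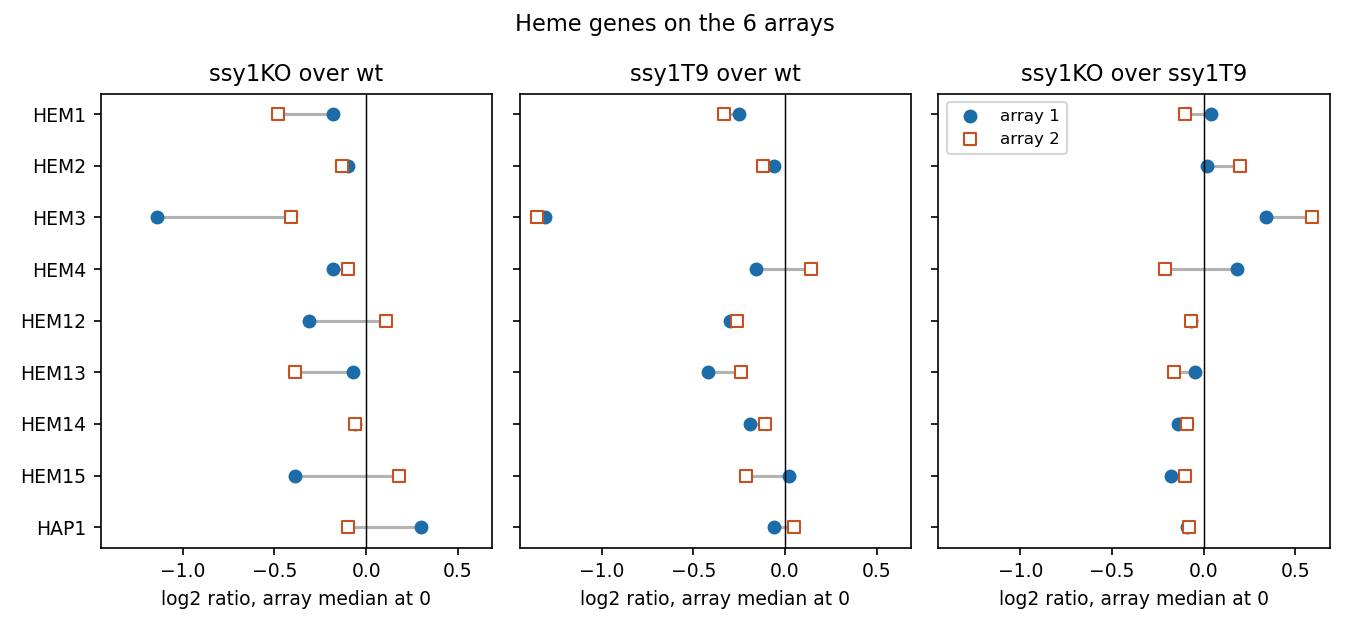
Log2 ratio of each heme gene on the 2 arrays of each strain pair, with the array's median over genes at 0; the ratio is turned to ssy1KO over wt (left), ssy1T9 over wt (middle) and ssy1KO over ssy1T9 (right), and a grey line joins the 2 arrays. HEM3 lies at -1.14 and -0.41 in ssy1KO and at -1.31 and -1.35 in ssy1T9. It lies away from the other genes except on KO/wt array 2, where HEM1 is at -0.48.

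HEM1 encodes 5-aminolevulinate synthase, the mitochondrial enzyme that joins glycine and succinyl-CoA. Its log2 ratio of ssy1KO over wt was -0.18 and -0.48 on the 2 arrays. In ssy1T9 over wt it was -0.25 and -0.33. All 4 readings against wt were below 0, and those of the 2 mutants overlapped. In ssy1KO over ssy1T9 the gene read 0.04 and -0.10, on either side of 0. The fitted difference was -0.33 (SE 0.08, 6 arrays) in ssy1KO and -0.29 (SE 0.08) in ssy1T9. Between the mutants it was -0.03, with a 95% interval of -0.19 to 0.13. Without centring HEM1 was at -0.17 and -0.12 and passed in neither mutant. The call in ssy1T9 was also lost without T9/wt array 1, at -0.26.

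HEM2 encodes the cytosolic 5-aminolevulinate dehydratase, also called porphobilinogen synthase. It read -0.10 and -0.13 in ssy1KO over wt, and -0.06 and -0.12 in ssy1T9 over wt. These readings were close to 0 and to each other. The fit gave -0.07 for ssy1KO and -0.14 for ssy1T9, each with an SE of 0.08, and neither passed. The 95% intervals ran from -0.23 to 0.09 in ssy1KO and from -0.30 to 0.03 in ssy1T9.

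HEM3 encodes porphobilinogen deaminase, which links 4 porphobilinogen molecules into the linear precursor of the ring. In ssy1KO over wt HEM3 read -1.14 on array 1 and -0.41 on array 2. In ssy1T9 over wt it read -1.31 and -1.35. All 4 readings against wt were low, and both of ssy1T9 lay below both of ssy1KO. Directly compared, ssy1KO over ssy1T9 read 0.34 and 0.59, higher in ssy1KO on both arrays.

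The fitted differences of HEM3 were -0.81 in ssy1KO (SE 0.09, 95% interval -0.99 to -0.62) and -1.30 in ssy1T9 (SE 0.09, interval -1.48 to -1.12). These SEs draw mostly on the spread over all genes, with 20.7 prior against 3 residual degrees of freedom. They do not measure the spread of HEM3 itself between arrays. Both KO/wt readings of HEM3, -1.14 and -0.41, lay outside its ssy1KO interval. Counted from the lowest of 5711 genes, HEM3 had rank 38 in ssy1KO and rank 13 in ssy1T9. Both calls passed under all 12 alternative settings, with values from -0.96 to -0.65 in ssy1KO and from -1.40 to -1.13 in ssy1T9. Its 2 KO/wt arrays differed by 0.73, where the median over all genes was 0.23 on that pair and 90% of genes differed by no more than 0.52. The 2 T9/wt arrays differed by 0.04 for this gene. The fit gave HEM3 a dye effect of 0.16, which the single-array readings and both gaps still hold.

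Between the mutants HEM3 was at 0.50 in ssy1KO over ssy1T9 (SE 0.09, interval 0.31 to 0.68), rank 11 of all genes by size. The pair's own arrays gave a mean of 0.47, and the difference of the 2 means against wt gave 0.56. The gap of -0.09 between these routes compares with a median absolute gap of 0.13 over all genes. The call between the mutants was less steady than its value. It was lost without KO/wt array 1 (0.55), without KO/wt array 2 (0.42) and without T9/KO array 1 (0.49), and likewise from the pair's own 2 arrays or without a dye term.

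**Figure D2:**
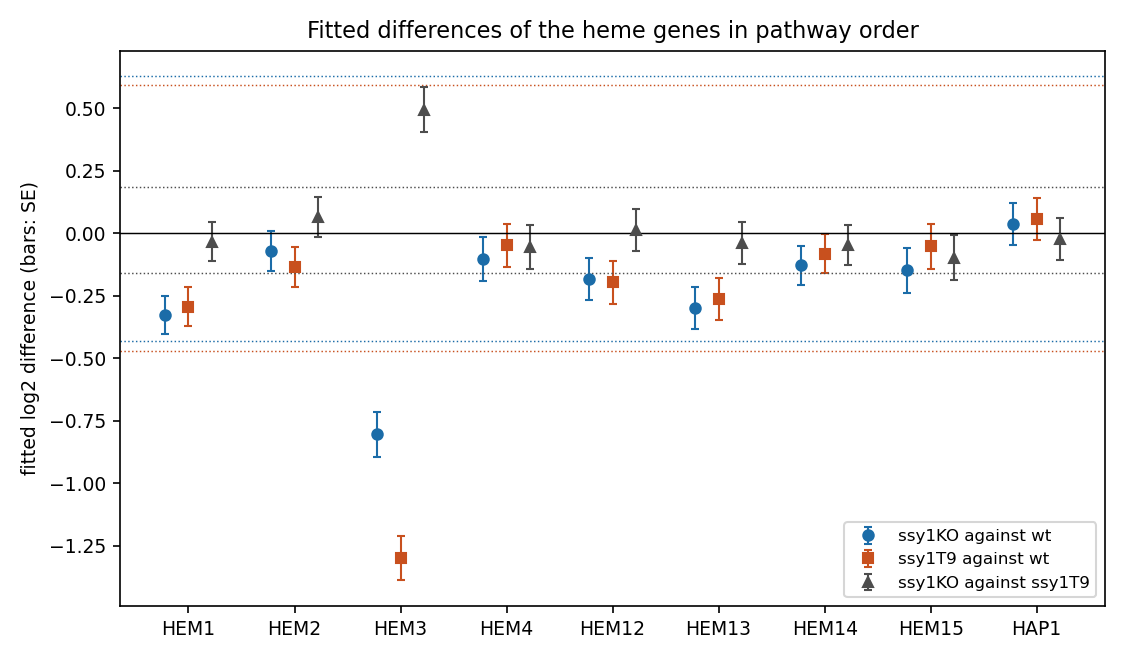
Fitted log2 difference of each heme gene, in pathway order, for ssy1KO against wt (circles), ssy1T9 against wt (squares) and ssy1KO against ssy1T9 (triangles); bars are 1 SE from the fit over 6 arrays, and dotted lines of the same colours bound the middle 95% of all 5711 genes. HEM3 lies outside those bounds in all 3 comparisons, and the other 8 genes lie inside them.

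HEM4 encodes uroporphyrinogen III synthase, which closes the ring. Its readings were -0.18 and -0.10 in ssy1KO over wt and -0.16 and 0.14 in ssy1T9 over wt. The T9/wt arrays pointed in opposite directions. The fitted differences were -0.10 and -0.05 (SE 0.09 for both) and did not pass.

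HEM12 encodes uroporphyrinogen decarboxylase, the next cytosolic enzyme. It read -0.31 and 0.11 in ssy1KO over wt, on either side of 0. On the T9/wt arrays HEM12 read -0.30 and -0.26, both low. The fitted differences of -0.18 for ssy1KO and -0.20 for ssy1T9, each with an SE of 0.08, did not pass over all genes. Leaving out KO/wt array 2 made the gene pass in both mutants, at -0.33 and -0.27, and leaving out T9/KO array 2 made it pass in ssy1T9, at -0.25. In the R64 reference the immediate neighbour of HEM12 is BAP3, a branched-chain amino acid permease gene under control of the sensor, which was at -3.26 in ssy1KO and -3.11 in ssy1T9. The neighbour on the other side, VMS1, was at -0.06 and -0.05 and did not pass. Of the measured neighbours of other members, COX20 beside HEM1 was called higher at 0.44 and 0.40, and RFM1 beside HEM4 at 0.26 and 0.35. No measured neighbour other than BAP3, COX20 and RFM1 passed against wt. Among all genes 24.3% were called in ssy1KO and 26.2% in ssy1T9 in either direction, so nothing is read from the number of neighbours called. These neighbours were named after their values were seen.

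HEM13 encodes coproporphyrinogen oxidase, an oxygen-requiring enzyme whose gene Rox1 is known to repress in air. In ssy1KO over wt it read -0.07 and -0.39. In ssy1T9 over wt HEM13 read -0.42 and -0.24. All 4 readings were below 0, and the ranges of the mutants overlapped. The fit put HEM13 at -0.30 in ssy1KO, with an SE of 0.08, and at -0.26 in ssy1T9 with the same SE. In ssy1KO the call was lost under 7 of 12 alternatives and in ssy1T9 under 5 of 12. Without T9/wt array 1 the ssy1T9 value was -0.13, more than 1.5 times nearer to 0, and from the KO/wt arrays alone the ssy1KO value was -0.23. Without centring HEM13 was at -0.14 in ssy1KO and at -0.09 in ssy1T9 and passed in neither.

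HEM14 encodes protoporphyrinogen oxidase and HEM15 ferrochelatase, the mitochondrial enzyme that inserts the iron. HEM14 read -0.06 on each KO/wt array and -0.19 and -0.11 in ssy1T9 over wt. HEM15 read -0.39 and 0.18 in ssy1KO over wt, the second-widest gap among these genes at 0.57. On the T9/wt arrays HEM15 read 0.02 and -0.21. The fitted values were -0.13 and -0.08 for HEM14 (SE 0.08) and -0.15 and -0.05 for HEM15 (SE 0.09), in ssy1KO and ssy1T9, and none passed. HEM15 passed in ssy1KO without KO/wt array 2, at -0.32.

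HAP1 was the 1 member that is no enzyme. It read 0.30 and -0.10 in ssy1KO over wt and -0.06 and 0.05 in ssy1T9 over wt. Neither pair agreed in sign. The fitted differences were 0.04 (interval -0.14 to 0.21) and 0.06 (interval -0.12 to 0.23), and HAP1 did not pass under any alternative.

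Between the mutants the 8 genes other than HEM3 lay from -0.10 for HEM15 to 0.07 for HEM2, and none passed. The widest 95% interval bound among the other enzymes was -0.28, for HEM15, and the direct readings of HEM4 were 0.18 and -0.21. On the 3 pairs 6, 6 and 7 of the 9 genes had one sign on both arrays, for KO/wt, T9/wt and T9/KO, beside 56.4%, 59.6% and 49.9% of all genes.

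By pattern over the 6 arrays, measured as the root mean square difference in log2 ratio, the genes nearest to HEM3 were PHO89 (0.24), RPP2A (0.25) and ARE2 (0.26). PHO89, encoding a sodium-coupled phosphate transporter, was at -0.70 in ssy1KO, -1.19 in ssy1T9 and 0.49 between the mutants. RPP2A, encoding an acidic ribosomal stalk protein, was at -0.69, -1.0 and 0.31, and its call in ssy1KO was lost without KO/wt array 1. ARE2, encoding a sterol acyltransferase, was at -0.87, -1.16 and 0.29. The nearest to HEM1 were NOP2, FAS1 and FRE3, at 0.04 to 0.06, and the nearest to HEM13 were LIA1, RCM1 and RRP17, at 0.05 to 0.06. This distance is not scaled to the size of a gene's differences, and few genes were as low as HEM3. Its larger distances are therefore not read as a distinct pattern. The 1 measured neighbour of HEM3 in the R64 reference, YCX1, did not pass, at -0.09 in ssy1KO and 0.01 in ssy1T9.

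**Figure D3:**
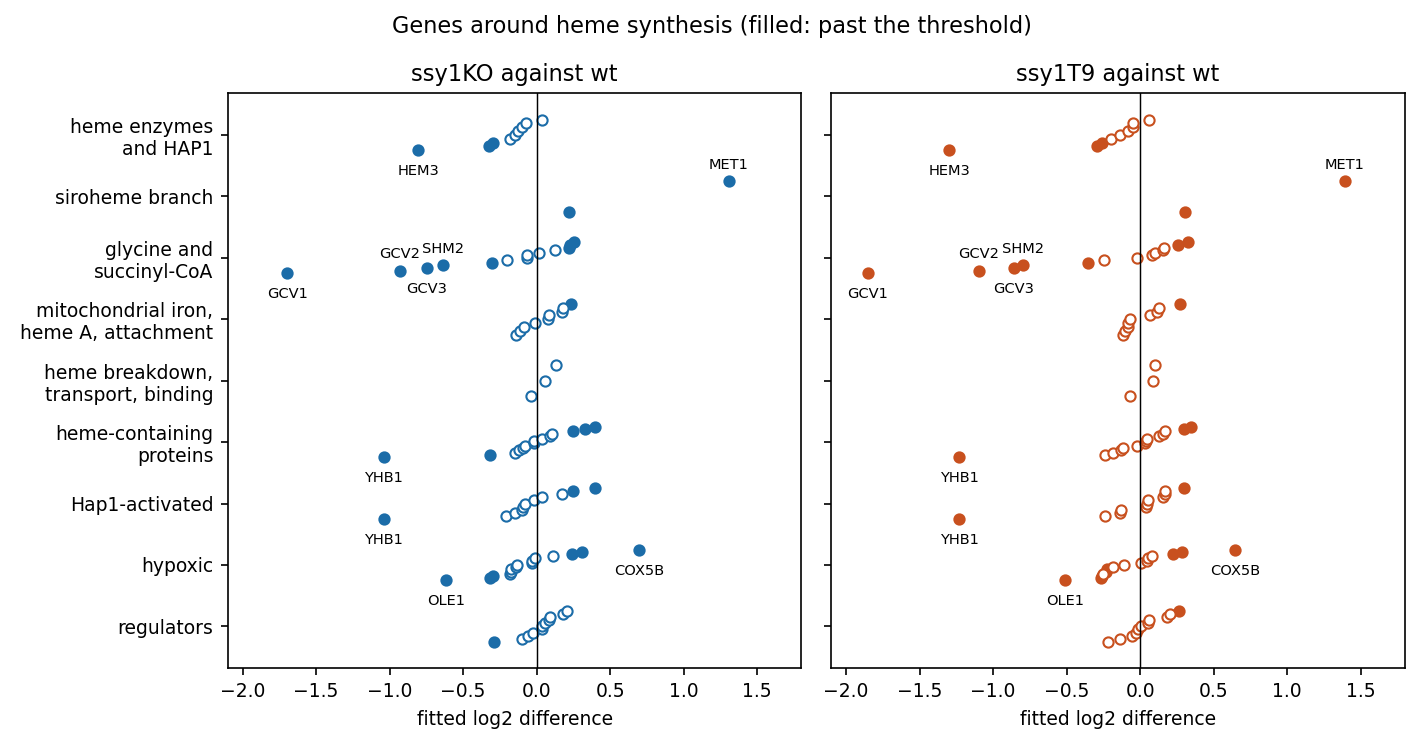
Fitted log2 difference of the heme genes and of genes around them, 1 point per gene and 1 row per list, in ssy1KO (left) and ssy1T9 (right) against wt; filled points passed the threshold, and those beyond 0.5 in size are named. GCV1, YHB1, GCV2 and HEM3 are the lowest in both mutants, in that order in ssy1KO. MET1 lies far above 0 in both, and YHB1 stands in 2 lists.

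Both measured genes of the siroheme branch were called higher in both mutants. Among all genes 13.8% were called higher in ssy1KO and 14.1% in ssy1T9. MET1, encoding the methyltransferase that takes uroporphyrinogen III into the branch, was called higher at 1.31 in ssy1KO, and at 1.39 in ssy1T9, each with an SE of 0.08. MET8, encoding the dehydrogenase and ferrochelatase that completes siroheme, rose to 0.22 and 0.30 (SE 0.08). The MET1 calls held under all 12 alternatives, and that of MET8 in ssy1KO under 5 of them. Without KO/wt array 2 MET8 was at 0.14 in ssy1KO, and its call there was also lost without KO/wt array 1, T9/wt array 1 or T9/KO array 1.

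Of 13 genes for the supply and use of glycine and succinyl-CoA, 5 fell and 3 rose in ssy1KO, and 5 fell and 2 rose in ssy1T9. Over all genes 10.5% were called lower and 13.8% higher in ssy1KO, and 12.1% and 14.1% in ssy1T9. The genes of the glycine cleavage complex, which breaks glycine down in the mitochondrion, fell by 1.70 (GCV1), by 0.93 (GCV2) and by 0.75 (GCV3) in ssy1KO, and in ssy1T9 GCV1 fell by 1.85, GCV2 fell by 1.10 and GCV3 fell by 0.86. SHM2, encoding the cytosolic serine hydroxymethyltransferase that makes glycine from serine, fell by 0.64 and by 0.80. GLY1, encoding threonine aldolase, another source of glycine, fell by 0.30 and by 0.35 and lost both calls without centring, that in ssy1KO also without KO/wt array 1 and that in ssy1T9 without T9/wt array 1. AGX1, encoding a glyoxylate aminotransferase that makes glycine, rose to 0.23 and 0.26. LPD1, the dihydrolipoamide dehydrogenase shared by glycine cleavage and the succinyl-CoA-forming complex, rose to 0.26 and 0.33. The AGX1 call in ssy1KO was lost with any 1 array left out other than T9/KO array 2, and that in ssy1T9 with any other than KO/wt array 2 or T9/KO array 1. The LPD1 call in ssy1KO was lost with any other than T9/wt array 2 or T9/KO array 2. HEM25, encoding the mitochondrial carrier that brings in glycine for heme synthesis, was at 0.01 and -0.02 and did not pass. Of the 8 calls in ssy1KO 4 held under all 12 alternatives, and of the 7 in ssy1T9 5 did, the cleavage genes and SHM2 among them. The 13 genes had a median of -0.07 in ssy1KO and -0.02 in ssy1T9.

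Of 14 genes of heme-containing proteins 3 rose and 2 fell in ssy1KO, and 2 rose and 1 fell in ssy1T9, beside 24.3% and 26.2% of all genes called in either direction, with medians of -0.02 and 0.04. YHB1, encoding flavohemoglobin, which oxidises nitric oxide, fell by 1.04 in the deletion strain and by 1.23 in ssy1T9, each with an SE of 0.08, and it was the 1 gene of this list whose calls held under all 12 alternatives. CCP1, encoding the mitochondrial cytochrome c peroxidase, rose to 0.33 and 0.35. Without KO/wt array 2 CCP1 was at 0.19 in ssy1KO and lost its call, as it did without KO/wt array 1, and in ssy1T9 it lost its call without T9/wt array 1. CYC7, encoding the minor form of cytochrome c, rose to 0.40 and 0.30. Its call in ssy1KO was lost without KO/wt array 1, and that in ssy1T9 with any 1 array left out other than KO/wt array 2 or T9/KO array 2. The catalase genes CTA1 and CTT1 were at -0.12 and -0.02 in ssy1KO and at -0.12 and 0.05 in ssy1T9, and did not pass. Of 9 genes for mitochondrial iron, heme A synthesis and heme attachment, the ferredoxin gene YAH1 rose to 0.23 and 0.27, and the others ran from -0.14 to 0.18 in ssy1KO and from -0.12 to 0.13 in ssy1T9. Neither YAH1 call held under more than 5 of 12 alternatives, and without KO/wt array 2 it was at 0.08 in ssy1KO. With any 1 array left out other than T9/wt array 2 YAH1 lost its call in ssy1T9, and with any other than T9/wt array 2 or T9/KO array 2 in ssy1KO. The heme oxygenase gene HMX1, the porphyrin transporter gene PUG1 and the heme-binding protein gene DAP1 lay between -0.04 and 0.13 in ssy1KO and between -0.07 and 0.10 in ssy1T9, and 0 of 3 passed in either.

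Of 11 genes known as Hap1 targets 2 rose and 1 fell in ssy1KO, and 1 rose and 1 fell in ssy1T9, where 24.3% and 26.2% of all genes were called in either direction. CYC7 rose and YHB1 fell in both. The repressor gene ROX1 was at -0.10 and -0.14, and the main cytochrome c gene CYC1 at -0.09 and -0.24, and neither passed. Of 15 hypoxic genes, HEM13 among them, 3 rose and 3 fell in ssy1KO, and 3 rose and 5 fell in ssy1T9, against the same shares of all genes. COX5B, encoding the hypoxic form of a cytochrome oxidase subunit, rose to 0.70 and 0.64, and the fatty acid desaturase gene OLE1 fell by 0.62 and by 0.51. These 2 genes held their calls under all 12 alternatives in both mutants, and the other 4 and 6 calls in this list did not. Of 11 regulators, HAP1 and ROX1 among them, UPC2, encoding a sterol-responsive activator, fell by 0.29 in ssy1KO, and HAP4, encoding the activating subunit of the CCAAT-binding complex, rose to 0.26 in ssy1T9. UPC2 lost its call under 5 of 12 alternatives, among them no centring, no dye intercept and either KO/wt array left out. HAP4 lost its call under 5 of 12, among them those without KO/wt array 1, T9/wt array 2 or T9/KO array 1. No gene of the siroheme, regulator, hypoxic, Hap1-target, glycine or heme protein lists passed between the mutants. Only 0.298% of all genes passed in that comparison, so nothing is read from the absence of calls in short lists.

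**Figure D4:**
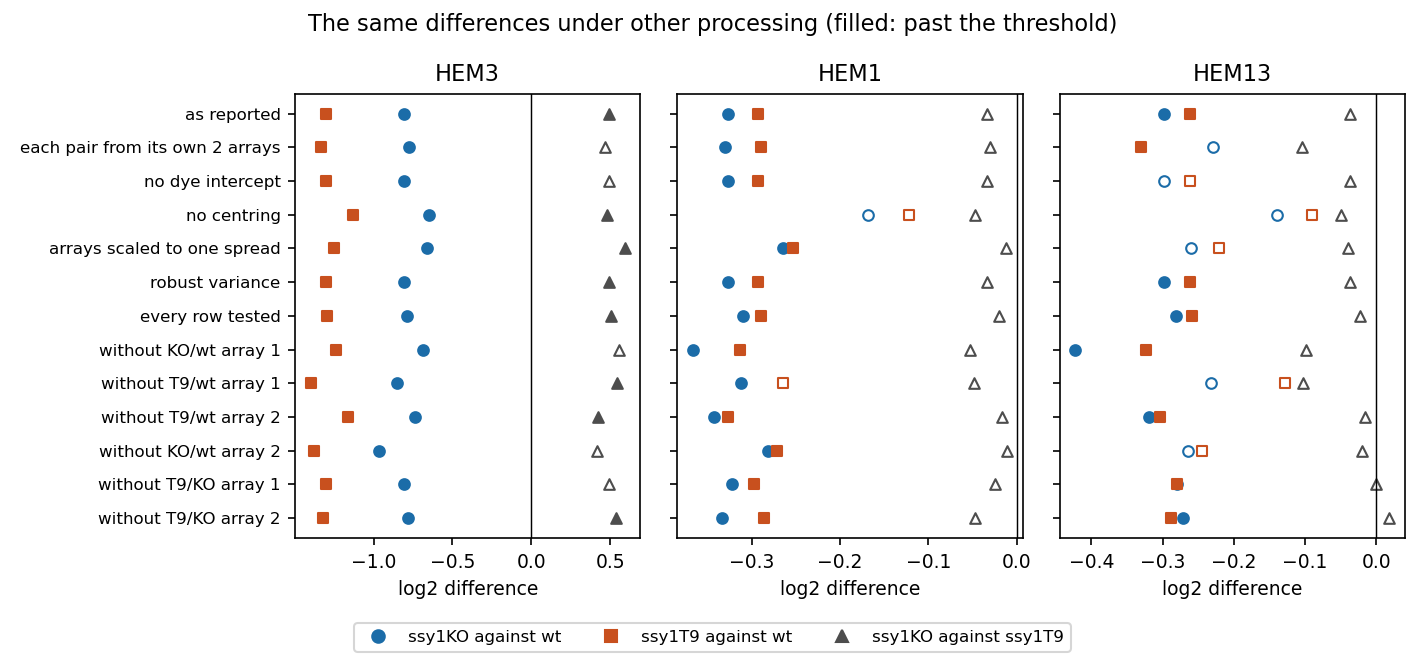
Log2 difference of HEM3 (left), HEM1 (middle) and HEM13 (right) as reported and under 12 other settings, for ssy1KO against wt (circles), ssy1T9 against wt (squares) and ssy1KO against ssy1T9 (triangles); filled symbols passed the threshold. HEM3 stays between -1.40 and -0.65 against wt in either mutant, while HEM1 and HEM13 move toward 0 without centring; each panel has its own log2 scale.

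Other differences between the strains moved with the same comparisons. SSY1 lay at -1.44 in ssy1KO against wt and set the direction, so it is no check of the labels. For the counts of calls below, 13.8% of all genes were called higher and 10.5% lower in ssy1KO, and 14.1% and 12.1% in ssy1T9. Of 8 genes often deleted in laboratory strains 6 rose in ssy1KO, and 5 rose and 1 fell in ssy1T9, LEU2 to 2.38 and 2.21 and MET17 to 2.17 and 2.18. URA3 was at 2.12 in ssy1KO and -0.04 in ssy1T9. Of 4 markers of alpha cells 3 fell in ssy1KO and 2 in ssy1T9, the agglutinin gene SAG1 by 0.55 and by 0.48. SAG1 lost its ssy1T9 call under 1 of 12 alternatives. MF(ALPHA)2, at -0.52 and -0.43, held both calls under all 12. MF(ALPHA)1, called in ssy1KO alone at -0.31, lost that call under 6 of 12. STE3, also in this list, lay above 0 at 0.13 and 0.16 and passed in neither. Of 6 markers of a cells 1 rose in ssy1KO and 0 passed in ssy1T9, with a range of -0.11 to 0.24 and of -0.16 to 0.22. The 1 call, of MFA2, was lost under 6 of 12 alternatives. The 4 haploid markers lay between -0.15 and 0.07 and between -0.11 and 0.00. Ratios give no absolute level, so none of these markers can be said to be absent. The part of these differences in the values of the heme genes was not tested, and less transcript per cell cannot be told apart from fewer cells that make it.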

How the data were processed

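Total RNA of 2 strains per array was labelled with Cy5 and Cy3 by the Genisphere 3DNA system, per the labels. The deposited value table holds 1 log ratio per spot, taken as log2, in 7744 rows for 6 arrays, with 0 missing values. Scanner, background correction, normalization, log base and ratio direction: not given in the sources used here. As deposited, columns were not centred: their medians over genes ran from -0.58 to -0.08. Platform annotation gave 6116 rows 1 symbol, 0 several and 1628 none here; 6111 symbols were updated by gene identifier to R64 names. Spots were averaged per gene (5711 genes, 33 with more than 1 spot) and arrays centred on their medians.

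A model with a dye intercept and a coefficient per mutant was fitted to all genes and arrays in R 4.3.3 with limma 3.58.1 (eBayes, 3 residual and 20.7 prior degrees of freedom), two-sided, with Benjamini-Hochberg adjustment over all genes. ssy1KO against ssy1T9 is a contrast of this fit. Since separate cultures are not stated, p-values reflect the spread among these 6 arrays alone, possibly technical. Precision is limited by how few arrays there are: SEs had a median of 0.08, a 95% interval of 0.17 to either side. A run on simulated data checked the code of the fit and not the calls. Its noise was the same for every gene and independent between arrays, with no dye effect and differences placed in ssy1KO alone. Members and lists were chosen with earlier results of these data known. Genes named are the 9 members, list genes past the threshold, SSY1, and the 3 genes nearest in pattern to the 3 most changed members; members of lists named otherwise, and neighbours, were chosen after their values were seen. Alternatives were each pair from its own arrays, no dye intercept, no centring, arrays scaled to one spread, robust variance, every row tested, and each array left out.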

Additional observations from a re-analysis of the deposited data

Results flagged for a closer look

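HEM3 was flagged because its difference from wt was not the same in the 2 mutants: the test of that difference gave 0.50 on the log2 scale in ssy1KO over ssy1T9 (SE 0.09, limma adjusted p = 0.00537), higher in ssy1KO on 2 of 2 arrays of the pair. Over 12 alternatives the adjusted p ran from 0.00129 to 0.587. The gene was chosen with this result known, so the p-value is a description. Groups of 2 arrays are too small for a search for outlying samples.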

How the results depend on the processing

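Of 27 differences of heme genes (9 genes, 3 comparisons), 19 kept their side of the threshold under all 12 alternatives; 7 passed as reported, and of these HEM3 against wt in both mutants passed under every alternative. Over 324 recomputed values, 20 lost a call, 4 gained one and 0 called values changed sign, while 27 values that did not pass did. HEM3 between the mutants lost its call from the pair's own arrays (0.47, adjusted p = 0.587) and without a dye intercept (0.50, adjusted p = 0.451). The count of heme genes called between the mutants, 1 as reported, was 0 under both, and 0 to 1 with an array left out. Without centring 1 heme gene was called in ssy1KO and 1 in ssy1T9; with an array left out the ssy1T9 count ran from 1 (without T9/wt array 1) to 4. Over all genes, the ssy1KO count of 1386 was 882 from own arrays, 740 without a dye intercept, 883 with arrays scaled, and 626 (without KO/wt array 1) to 1513 with an array left out. The ssy1T9 count of 1494 was 859, 812 and, with an array left out, 793 (without T9/wt array 1) to 1457. The 17 calls between the mutants became 7 from own arrays, 6 without a dye intercept, and 7 to 19 with an array left out, with 7 without KO/wt array 1 or T9/KO array 1 and 11 without T9/wt array 1. Fewer arrays enter the fits that leave one out. The fit that uses own arrays still holds all arrays, with a separate coefficient per pair and a shared dye term and spread. The cause of the changes was not tested. Without centring 92.1% of calls in ssy1KO were higher (56.9% as reported) and 91.3% in ssy1T9 (53.7%). Each ratio already sets 2 strains against each other on 1 array. No paired analysis was possible because, across arrays, the labels give no replicate numbers.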
